A study of Mus musculus with 4 samples.

Results

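The genes described here are 33 genes of macrophages and related myeloid cells, listed by name as markers of the resident immune cells of the testis. They were looked up in a mouse expression array through RefSeq transcript accessions, and for each gene the transcript with the highest mean log2 level over the arrays stood for it. Of the 33 genes, 31 were measured, out of 17277 named genes in the table, and no transcript was named for Cd68, a glycoprotein of macrophage lysosomes, or Mpeg1, the pore-forming perforin-2. The samples were whole testes from males at postnatal day 9, and the comparison was between 3 arrays labelled Dmrt1 KO, which were Cre-positive, and 1 control array, which was Cre-negative, and both groups carried the label DHH-cre. Dhh is made by Sertoli cells of the testis, and Dmrt1 encodes a transcription factor of Sertoli and germ cells. The labels give neither the floxed allele that each group carried nor the animals behind an array. Whether differences between KO arrays are technical only, or also between animals, is therefore not known. The p-values rest on the spread among the KO arrays, and none of it comes from the control.

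Testis macrophages live in the interstitium beside the steroid-making Leydig cells and along the wall of the seminiferous tubules. They depend on signalling through the CSF1 receptor, clear debris and foreign particles with scavenger, Fc and complement receptors, and degrade them in lysosomes. In the adult mouse testis, interstitial macrophages are known for high CD64, the product of Fcgr1, and little MHC class II, while peritubular macrophages are known for the opposite pattern. In RNA of a whole organ, fewer macrophages and less of a transcript in each of them cannot be told apart.

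Dmrt1 had log2 levels of 13.23, 13.38 and 13.66 in the KO arrays and of 14.16 in the control (limma, adjusted p = 0.586), so the targeted gene lay lower in each KO array but did not pass the test. Where its probes lie relative to the deleted part is not known here. Medians of the 4 arrays lay between 1005 and 1011 intensity units. All levels below are log2 of the deposited intensity, KO values stand in the order of replicates 1, 2 and 3, and a difference is the mean of the KO arrays minus the control on the log2 scale. A gene passed at an adjusted p under 0.05 over all 25631 transcripts of the table. Markers of Sertoli, germ and Leydig cells (Amh, Sox9, Ddx4, Dazl, Cyp17a1, Hsd3b1, Insl3 and Star) were all in the table, with log2 levels of 10.73 or more in every array.

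No macrophage or myeloid gene passed the test in either direction. limma called 0 of 31, against 0.718% of the 17277 named genes (0.197% higher and 0.521% lower in the KO arrays) and 0.655% of all transcripts, so a count of 0 is near the background. At an unadjusted p under 0.05 there were 3 members (9.68%), Ctss and C1qc above the control and Fcgr1 below it, against 6.63% of named genes. The median difference of the members was 0.28, with a range of -0.85 to 0.71, and the median over all named genes was 0.01. The difference was above 0 in 23 members (74.2%), against 51.4% of named genes. In 17 of the 31 members (54.8%) each KO array lay above the control, against 26.6% of named genes, and in 4 members (12.9%), Fcgr1, Cd163, Lgmn and Fcer1g, each KO array lay below it, against 24% of named genes. The control lay within the range of the KO arrays in the other 10. Members were listed as markers of related cells and were read in the same 4 arrays, so they are not independent observations.

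**Figure D1:**
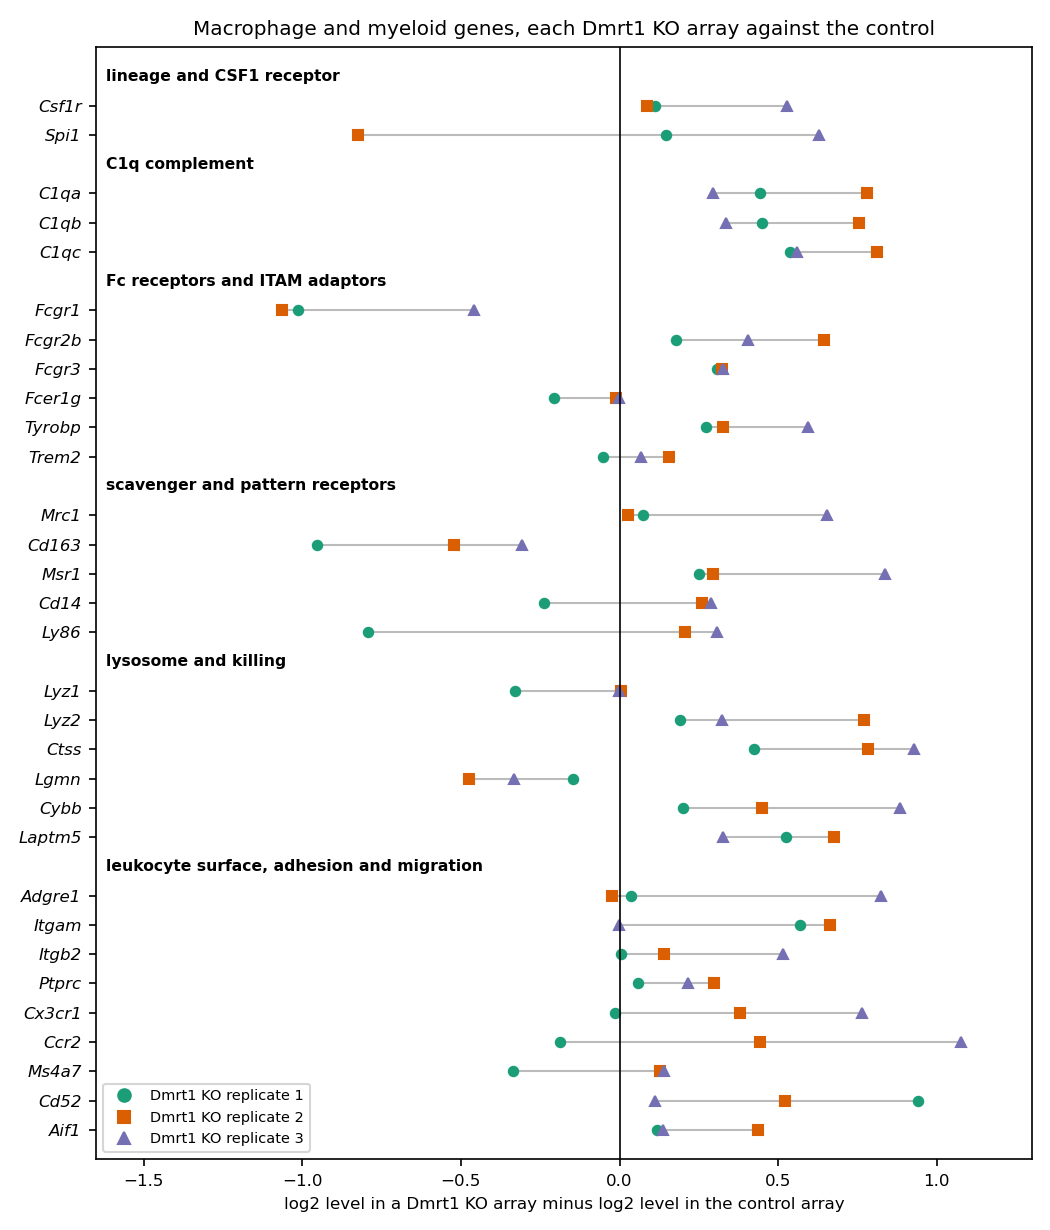
Each point is the log2 level in 1 Dmrt1 KO array minus the log2 level in the single control array, for the 31 measured members in groups by role, with a grey line from the lowest to the highest KO array. All points of C1qa, C1qb, C1qc, Ctss and Laptm5 lie right of 0, those of Fcgr1, Cd163 and Lgmn left of it, and Spi1 spans the widest range.

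The genes of C1q, which starts the classical complement pathway and is made largely by macrophages, lay above the control in every KO array. C1q is built from 3 chains, encoded by C1qa, C1qb and C1qc, and in the RefSeq gene table of GRCm38.p6 these genes are immediate neighbours on chromosome 4, with 0 protein-coding genes between them. C1qa had log2 levels of 11.34, 11.68 and 11.19 in the KO arrays and of 10.90 in the control. For C1qb the levels were 11.76, 12.06 and 11.64 in the KO arrays and 11.31 in the control. C1qc stood at 11.96, 12.24 and 11.98 in the KO arrays and at 11.42 in the control. The groups did not overlap for any of the 3 genes, and KO replicate 2 was the highest array for all of them. No overlap, here and below, means that the 1 control array lay outside the range of the KO arrays. Over all named genes, every KO array lay above the control in 26.6% and below it in 24%. C1qc differed by 0.64 ± 0.26 (SE, 1 control and 3 KO arrays), a level 1.55-fold higher in the KO arrays, with a 95% interval of 0.05 to 1.22 and an adjusted p of 0.698 (limma). C1qa differed by 0.51 ± 0.28 and C1qb by 0.51 ± 0.27. Since the 3 chains form 1 protein and their genes share a locus, their values are not independent of each other. On the intensity scale C1qc read 3993, 4823 and 4054 in the KO arrays and 2749 in the control.

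**Figure D2:**
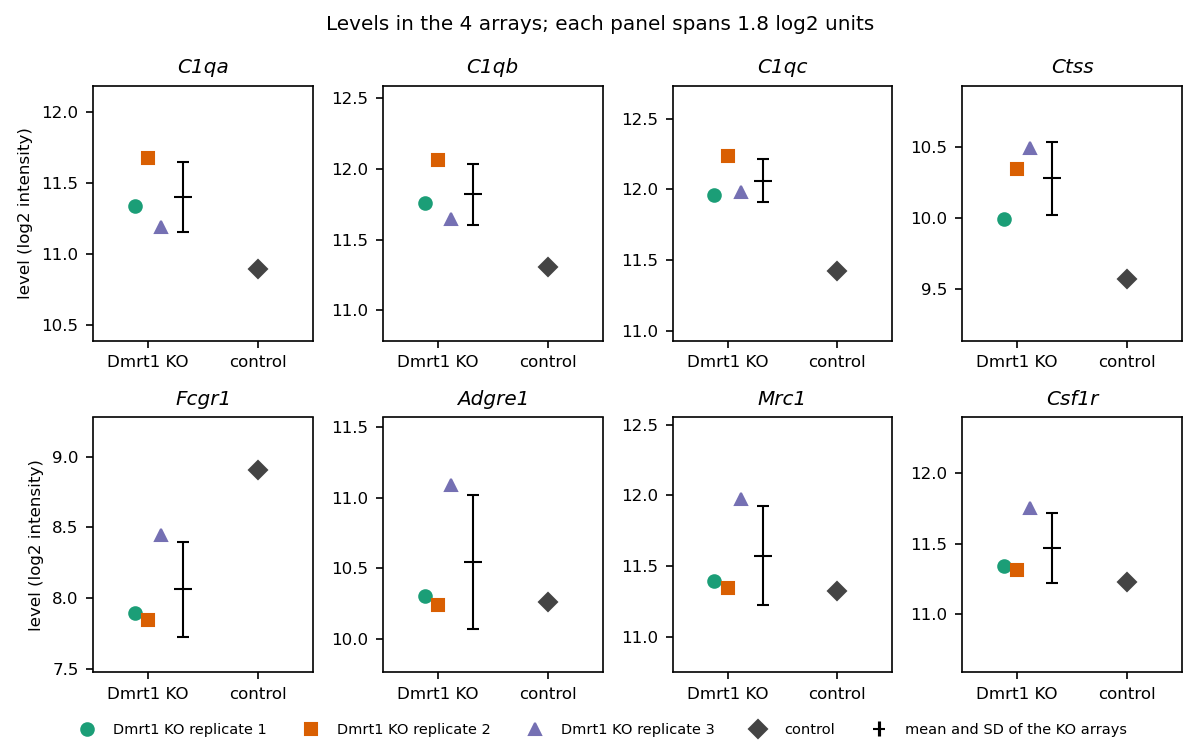
Log2 intensity of 8 members in the 3 Dmrt1 KO arrays (left of each panel, with their mean and SD) and in the control array (right, diamond), with every panel spanning the same number of log2 units. The KO arrays lie above the control for C1qa, C1qb, C1qc and Ctss and below it for Fcgr1, while for Adgre1, Mrc1 and Csf1r it is KO replicate 3 that lies far above the rest.

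Upstream sequence is shown for both C1q genes that the RefSeq promoter table holds and for the members with the largest difference in each direction, Ctss and Fcgr1. PU.1, the product of Spi1, is known to bind purine-rich sites such as GAGGAA near the start of many myeloid genes. Each line below gives the 250 bases before the transcription start, 5′ to 3′ along the gene, from RefSeq on GRCm38.p6, and capitals mark GAGGAA or, for the opposite strand, TTCCTC. The windows are chr4:136886201-136886450 on the minus strand for C1qb, chr4:136892915-136893164 on the minus strand for C1qc, chr3:95526536-95526785 on the plus strand for Ctss and chr3:96293970-96294219 on the minus strand for Fcgr1.
C1qb: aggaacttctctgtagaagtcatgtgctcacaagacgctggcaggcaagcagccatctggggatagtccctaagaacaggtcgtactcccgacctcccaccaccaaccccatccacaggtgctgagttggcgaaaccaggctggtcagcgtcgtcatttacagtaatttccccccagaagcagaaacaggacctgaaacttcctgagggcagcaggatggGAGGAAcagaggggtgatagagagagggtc
C1qc: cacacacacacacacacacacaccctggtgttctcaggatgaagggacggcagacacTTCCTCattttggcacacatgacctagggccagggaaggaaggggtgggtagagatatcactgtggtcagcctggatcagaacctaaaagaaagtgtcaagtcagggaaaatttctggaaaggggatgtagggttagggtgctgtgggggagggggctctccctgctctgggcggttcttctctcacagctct
Ctss: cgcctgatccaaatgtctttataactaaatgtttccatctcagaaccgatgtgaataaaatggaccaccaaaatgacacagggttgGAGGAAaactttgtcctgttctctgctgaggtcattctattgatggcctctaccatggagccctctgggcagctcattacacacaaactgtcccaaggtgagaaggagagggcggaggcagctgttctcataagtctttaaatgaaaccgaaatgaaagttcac
Fcgr1: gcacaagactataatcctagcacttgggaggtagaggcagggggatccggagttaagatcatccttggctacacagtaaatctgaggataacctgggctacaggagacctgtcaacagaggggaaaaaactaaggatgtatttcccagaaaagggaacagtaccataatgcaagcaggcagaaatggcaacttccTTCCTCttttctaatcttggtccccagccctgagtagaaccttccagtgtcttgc
Each of these 4 windows holds 1 match. It begins 30 bases before the start in C1qb and 193 in C1qc, 164 in Ctss and 55 in Fcgr1. The promoter table held 24 of the 33 listed genes, and 12 of them (50%) had GAGGAA on either strand in at least 1 window, against 25.9% of all 27025 genes in the table. The longer form GAGGAAGT, which contains the shorter, was found in 1 of 24, C1qc, against 2.8% of all genes. TATAAA was found in 4 of 24 (16.7%), against 14.3%, and the C/EBP palindrome TTGCGCAA in 0 of 24, against 0.2%. A match of letters is a description and shows no binding. Ctss and Fcgr1, which lay on opposite sides of the control, both hold the short form.

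Among the Fc receptors, which bind antibodies on immune complexes, Fcgr1 lay below the control in every KO array, and Fcgr2b and Fcgr3 lay above it. Fcgr1, the high-affinity receptor CD64, had log2 levels of 7.90, 7.84 and 8.45 in the KO arrays and of 8.91 in the control. All 3 KO arrays lay below the control, and the difference of -0.85 ± 0.30 (95% interval -1.52 to -0.17) was the largest of all members in size, with an adjusted p of 0.543 in limma. Fcgr2b, the inhibitory receptor, had levels of 9.27, 9.74 and 9.50 in the KO arrays and of 9.09 in the control, a difference of 0.41 ± 0.28. Fcgr3, an activating receptor, read 9.67, 9.68 and 9.69 in the KO arrays and 9.36 in the control, a difference of 0.32 ± 0.25. Its SD over the KO arrays was 0.010, the smallest of the members. Neither of the pair passed, and how far their probes tell these similar receptors apart is not known here.

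Of the adaptors that carry the signal of myeloid receptors, Fcer1g lay close to the control and Tyrobp moderately above it. Tyrobp, the adaptor DAP12, had levels of 10.16, 10.22 and 10.48 in the KO arrays and of 9.89 in the control, with no overlap and a difference of 0.40 ± 0.27 (limma, adjusted p = 0.962). Fcer1g, the common Fc receptor chain, had levels of 7.84, 8.03 and 8.05 in the KO arrays and of 8.05 in the control, a difference of -0.07 ± 0.26. Trem2, a lipid-sensing receptor that signals through DAP12, differed by 0.06 ± 0.26, with the control inside the range of the KO arrays.

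Of the genes of lysosomes and killing, Ctss had the largest positive difference of all members. Ctss encodes cathepsin S, a protease that trims the MHC class II invariant chain. It had log2 levels of 9.99, 10.35 and 10.50 in the KO arrays and of 9.57 in the control, with no overlap. The difference was 0.71 ± 0.28, or 1.64-fold, with a 95% interval of 0.08 to 1.34 and an adjusted p of 0.666 (limma). Laptm5, a lysosomal membrane protein of blood cells, had levels of 10.25, 10.40 and 10.05 in the KO arrays and of 9.73 in the control, a difference of 0.51 ± 0.27. Cybb, the catalytic subunit of the phagocyte NADPH oxidase, had levels of 7.22, 7.47 and 7.90 in the KO arrays and of 7.02 in the control, a difference of 0.51 ± 0.31. For both genes the groups did not overlap, and neither passed the test.

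Lysozyme, which cleaves bacterial cell walls, is encoded in mice by the neighbouring copies Lyz1 and Lyz2 on chromosome 10. Lyz2, the form of macrophages, had levels of 12.04, 12.62 and 12.17 in the KO arrays and of 11.85 in the control, a difference of 0.43 ± 0.30. Lyz1, known from intestinal Paneth cells, read 10.51, 10.85 and 10.84 in the KO arrays and 10.84 in the control, a difference of -0.11 ± 0.27. The copies are close in sequence, and how the array's probes divide their signal is uncertain. Lgmn, the lysosomal protease legumain, was the only gene of this group with all KO arrays below the control, at 13.60, 13.27 and 13.41 in the KO arrays and 13.75 in the control, a difference of -0.32 ± 0.26 that did not pass.

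The scavenger and pattern receptors were all highest in KO replicate 3 among the KO arrays. Mrc1, the mannose receptor CD206, had levels of 11.39, 11.35 and 11.98 in the KO arrays and of 11.32 in the control. KO replicates 1 and 2 lay 0.07 and 0.03 above the control and replicate 3 lay 0.66 above it, for a difference of 0.25 ± 0.31. Msr1, a scavenger receptor of modified lipoproteins, had levels of 6.34, 6.38 and 6.93 in the KO arrays and of 6.09 in the control, a difference of 0.46 ± 0.30. Cd163, the haemoglobin scavenger receptor, had levels of 6.59, 7.02 and 7.24 in the KO arrays and of 7.55 in the control, below it without overlap, a difference of -0.59 ± 0.30 (limma, adjusted p = 0.849). Cd14, a co-receptor for bacterial lipopolysaccharide, differed by 0.10 ± 0.29 and Ly86, the partner of a Toll-like receptor homolog, by -0.09 ± 0.40, both with the control inside the KO range.

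Lineage genes gave no common direction. Csf1r, the receptor on which macrophage survival depends, had levels of 11.34, 11.31 and 11.75 in the KO arrays and of 11.23 in the control, a difference of 0.24 ± 0.28 without overlap. Spi1, which encodes PU.1, had levels of 7.66, 6.69 and 8.15 in the KO arrays and of 7.52 in the control. Its KO arrays lay on both sides of the control and had the largest SD of the members, 0.74, so the difference of -0.02 ± 0.46 carries no direction.

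Surface and migration genes were mostly above the control, with wide spreads. Adgre1, the macrophage antigen F4/80, had levels of 10.30, 10.24 and 11.09 in the KO arrays and of 10.26 in the control, a difference of 0.28 ± 0.35. Cx3cr1, the fractalkine receptor, had levels of 9.27, 9.66 and 10.05 in the KO arrays and of 9.28 in the control, a difference of 0.38 ± 0.32. Ccr2, the receptor that draws monocytes out of the bone marrow, had levels of 8.08, 8.71 and 9.34 in the KO arrays and of 8.27 in the control, a difference of 0.44 ± 0.41. In each of these 3 genes the control lay within the KO range and KO replicate 3 was the highest array.

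Cd52, a small glycoprotein of leukocytes, showed the reverse order, with 9.71, 9.29 and 8.88 in the KO arrays and 8.77 in the control, a difference of 0.53 ± 0.33 without overlap. Itgam, the integrin chain CD11b, had levels of 9.99, 10.08 and 9.42 in the KO arrays and of 9.42 in the control, a difference of 0.41 ± 0.31, and its partner Itgb2 differed by 0.22 ± 0.28. Ptprc, the pan-leukocyte antigen CD45, had levels of 8.39, 8.63 and 8.54 in the KO arrays and of 8.33 in the control, a difference of 0.19 ± 0.26. Aif1, the calcium-binding protein IBA1, differed by 0.23 ± 0.27. For Ptprc, Itgb2 and Aif1 every KO array lay above the control, though Itgb2 by only 0.0049 in KO replicate 1. The lowest adjusted p among the 9 genes of this group was 0.948 (limma), for Cd52.

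Ms4a7, a membrane protein of macrophages, was the 1 member with more than 1 transcript, and these gave different pictures. The brighter transcript, which stood for the gene, had levels of 9.82, 10.28 and 10.30 in the KO arrays and of 10.16 in the control, a difference of -0.02 ± 0.29. The dimmer one, NM_001025610, had levels of 9.88, 10.35 and 10.33 in the KO arrays and of 9.52 in the control, a difference of 0.67 ± 0.29 (limma, adjusted p = 0.737). The transcripts had nearly equal levels in each KO array and parted in the control.

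**Figure D3:**
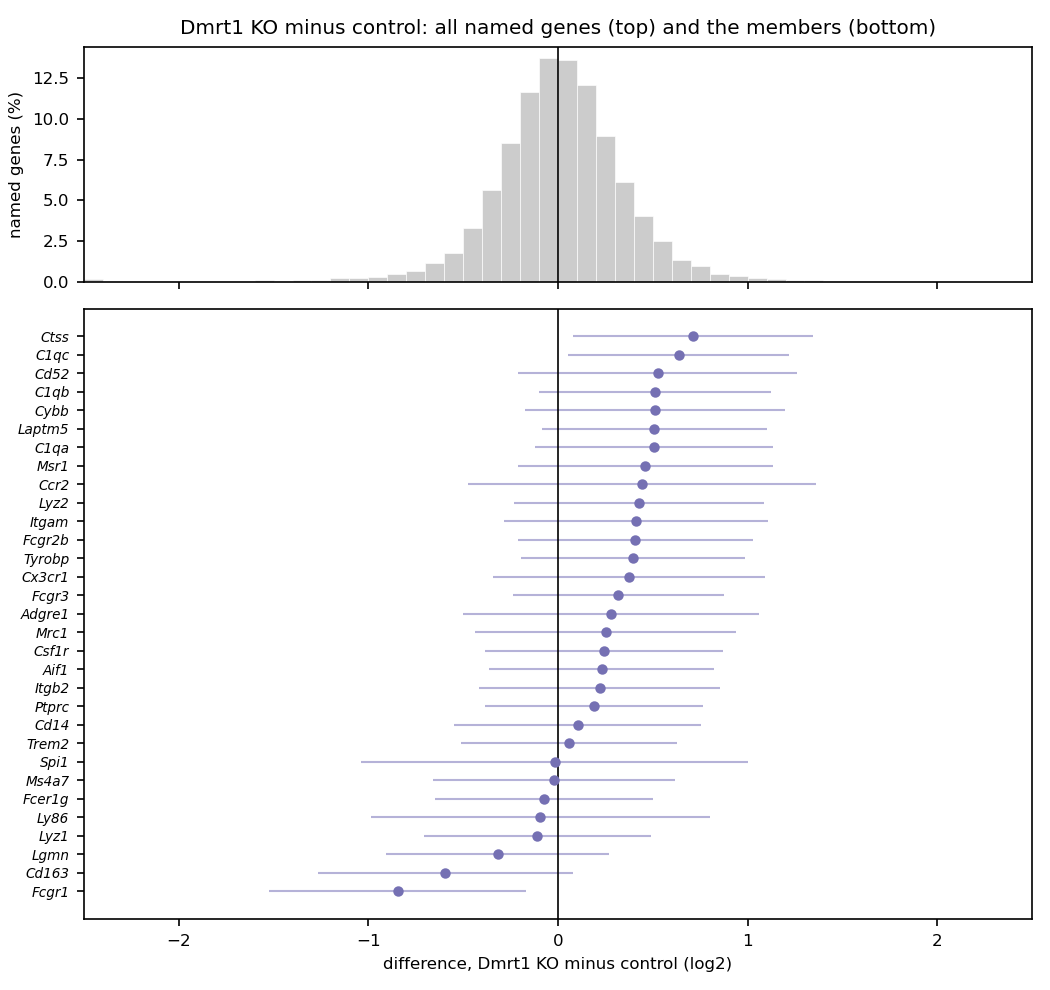
The upper panel shows the share of the 17277 named genes in each bin of the difference, Dmrt1 KO minus control, with values beyond the axis gathered in the end bins. The lower panel shows the 31 members with 95% intervals from limma, of which 23 lie right of 0 and only those of Ctss, C1qc and Fcgr1 leave out 0.

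An uncalled gene is not shown to be unchanged. The standard errors of the members ran from 0.25 to 0.46, their 95% intervals reached from -1.52 to 1.36, and the smallest difference that passed anywhere on the array was 1.35 in size. In brightness, 10 members (Spi1, Fcer1g, Trem2, Cd163, Msr1, Cd14, Ly86, Cybb, Itgb2 and Aif1) lay in the dimmest 25% of transcripts, below a mean log2 level of 8.00, and no background values were used here that would show whether such levels are signal. Of the other 21 members, 13 (61.9%) had every KO array above the control, against 26.7% of the named genes of that brightness, and their median difference was 0.40. In the 10 dim members the count was 4 (40%), against 26.6% of named genes of any brightness, and the median difference was 0.08.

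The KO arrays differed among themselves, and not by the same order in every gene. The median SD over the 3 KO arrays was 0.26 for the members and 0.21 for all named genes. KO replicate 3 was the highest KO array for 18 of 31 members (58.1%), against 36.9% of named genes. The excess lay mostly in the 10 dim members, of which 8 (80%) were highest there. Of the 21 brighter members 10 (47.6%) were, against 39.0% of named genes of that brightness. Replicate 2 was the highest for 11 (35.5%), against 32.3%, and replicate 1 for 2 (6.45%), Lgmn and Cd52, against 30.8%. Replicate 1 was the lowest for 20 of the 31 members and for 5939 of the 17277 named genes. Against the control, the median over the members was 0.11 in replicate 1, 0.30 in replicate 2 and 0.33 in replicate 3, with 20, 25 and 25 of the 31 members above it. The genes highest in replicate 3 included the receptors Adgre1, Ccr2, Mrc1 and Csf1r, while all 3 C1q genes and Lyz2 were highest in replicate 2. With 3 arrays, no test of these patterns was made.

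**Figure D4:**
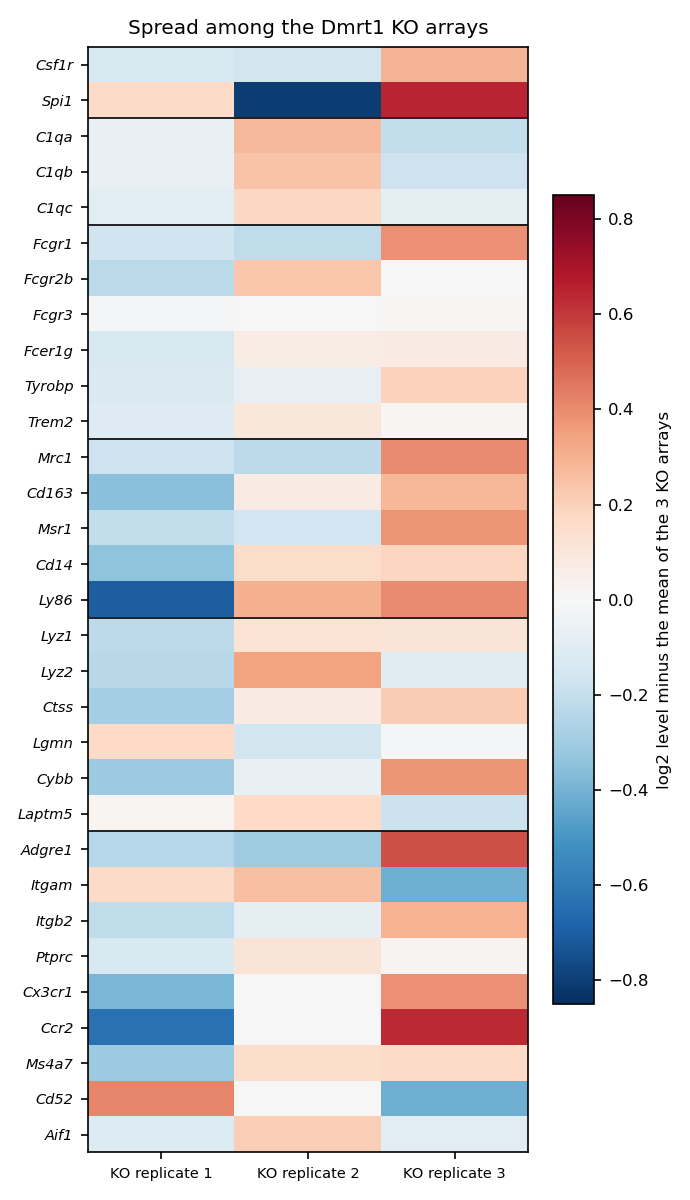
Colour shows each member's log2 level in a Dmrt1 KO array minus its mean over the 3 KO arrays, with black lines between the role groups. Replicate 3 is red for Adgre1, Ccr2, Mrc1, Msr1 and Spi1, replicate 2 is red for C1qa, C1qb, C1qc and Lyz2, and replicate 1 is mostly blue.

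With both remaining KO arrays required to lie above the control, 23 members did so without KO replicate 1 (34.1% of named genes), 19 without replicate 2 (34.1%) and 18 without replicate 3 (35.9%). The members' median difference was 0.18 without replicate 3, against 0.28 with all arrays, which is over 1.5 times smaller. Every value here rests on the same single control array.

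Of 55 further genes of macrophage biology in 8 lists, only 2 passed, both of MHC class II. The ligands of the CSF1 receptor did not pass, and their differences were small beside their standard errors. Csf1 had levels of 10.23, 10.28 and 10.54 in the KO arrays and of 10.38 in the control, a difference of -0.03 ± 0.27, and Il34 differed by -0.04 ± 0.26. In the list of CSF ligands and receptors 0 of 6 passed, with a median of -0.03, and none reached an unadjusted p under 0.05 in limma. The monocyte chemokines had 0 of 6 called by limma, 0 by its unadjusted p under 0.05, and a median of 0.11, with Ccl2, which attracts monocytes through Ccr2, at 0.39 ± 0.27, Ccl3 at 0.21 ± 0.26 and Ccl7 at 0.18 ± 0.27.

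Of 8 kinases and adaptors of Fc receptor and integrin signalling, none passed limma's test, 1 had an unadjusted p under 0.05, and the median was -0.06. That gene was Syk, the kinase recruited by the adaptors above, with levels of 11.19, 11.39 and 11.23 in the KO arrays and of 10.56 in the control, a difference of 0.72 ± 0.26 (limma, adjusted p = 0.532). Btk, a kinase of B cells and myeloid cells, was at 0.38 ± 0.35. The myeloid transcription factors had 0 of 7 called by limma, 0 by its unadjusted p under 0.05, and a median of -0.14, with Irf8, a factor of monocyte and dendritic cell development, at -0.30 ± 0.31 and Ikzf1 at -0.27 ± 0.26. All 7 of these factors were highest in KO replicate 3 among the KO arrays, against 36.9% of named genes.

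Complement genes beyond C1q had 0 of 6 called by limma, 0 by its unadjusted p under 0.05, and a median of 0.37. C5ar1, the receptor for the fragment C5a, was at 0.47 ± 0.25, C4b at 0.43 ± 0.27 and C3 at 0.41 ± 0.26, each with every KO array above the control. In the list of efferocytosis, the uptake of dying cells, 0 of 8 passed limma's test, the median was -0.01, and 1 gene had an unadjusted p under 0.05. This was Mertk, a receptor that both macrophages and Sertoli cells use to engulf dying cells, with levels of 11.31, 11.42 and 11.60 in the KO arrays and of 12.48 in the control, a difference of -1.03 ± 0.26 (adjusted p = 0.196). Its relative Axl was at -0.41 ± 0.27, and Apoe, a lipid carrier, at 0.41 ± 0.32. Toll-like receptor signalling had 0 of 8 called by limma, 0 by its unadjusted p under 0.05, and a median of 0.10, with Tgfb1 at -0.53 ± 0.27, Ly96 at 0.29 ± 0.30 and Tlr7 at 0.18 ± 0.25.

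The MHC class II genes present peptides on macrophages, dendritic cells and B cells. limma called 2 of 6, both higher in the KO arrays, against 0.197% of named genes called higher. A further 3 had an unadjusted p under 0.05 alone, for 83.3% of the list against 6.63% of named genes. The list's median difference was 1.08. Cd74, the invariant chain, had levels of 9.79, 9.52 and 9.49 in the KO arrays and of 7.55 in the control, a 4.15-fold rise (limma, adjusted p = 0.00578). H2-Eb1 had levels of 9.13, 8.89 and 9.18 in the KO arrays and of 6.42 in the control. The control levels of both lie below 8.00, among the dimmest 25% of transcripts, so their folds are uncertain. H2-Ab1 was at 1.26 ± 0.28 and did not pass (adjusted p = 0.105). No member of the macrophage list had a difference as large as these.

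**Figure D5:**
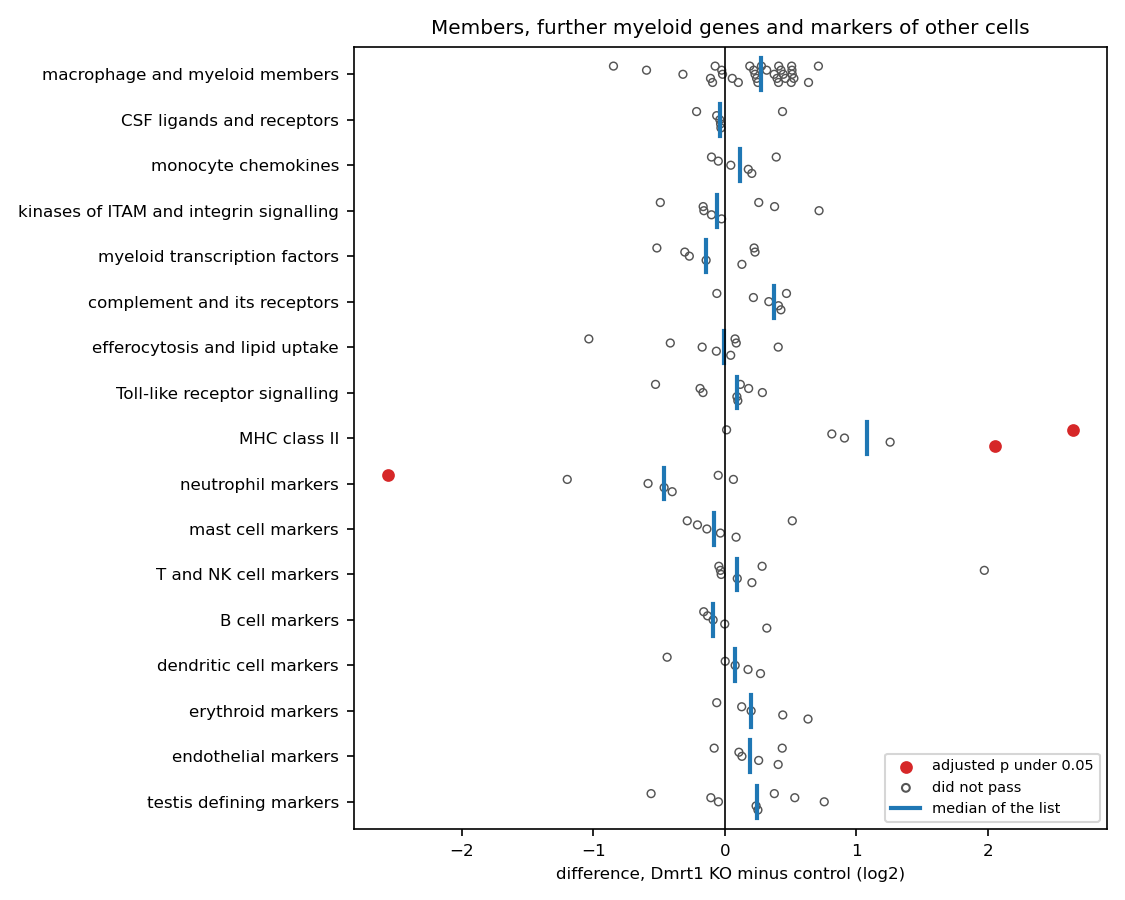
Each circle is the difference of 1 gene, Dmrt1 KO minus control on the log2 scale, for the 31 members, the further lists of macrophage biology and the markers of other cells, with the median of each list as a blue bar and genes that passed in red. Only Cd74 and H2-Eb1 on the right and S100a8 on the left passed.

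Markers of other blood cells were read in the same arrays. Of the neutrophil list 7 of 8 genes were measured and 1 fell, S100a8, a calcium-binding protein of neutrophils and monocytes. It had log2 levels of 5.41, 5.44 and 5.72 in the KO arrays and of 8.08 in the control, a 5.90-fold lower level in the KO arrays (limma, adjusted p = 0.00169). The KO levels of S100a8 are among the dimmest of the table, so the fold is uncertain. Ngp, a protein of neutrophil granules, was at -1.20 ± 0.27 (adjusted p = 0.112) and Mpo, myeloperoxidase, at -0.58 ± 0.32. In 5 of the 7 genes (71.4%) every KO array lay below the control, against 24% of named genes, and the list's median was -0.46. S100a9, which forms a complex with S100a8, had levels of 10.97, 11.29 and 10.61 in the KO arrays and of 10.89 in the control. The summed intensity of the list was 2617 to 3895 in the KO arrays and 3887 in the control.

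limma called 0 of 6 mast cell, 0 of 7 measured T and NK cell, 0 of 5 B cell and 0 of 5 dendritic cell markers, and by the unadjusted p under 0.05 the counts were 0, 1, 0 and 0, with medians of -0.08, 0.10, -0.09 and 0.08. The T cell gene was Cd3e, with levels of 10.67, 8.66 and 8.44 in the KO arrays and of 7.28 in the control (adjusted p = 0.501). The summed intensity of the mast cell markers was 4795 to 5576 in the KO arrays and 5778 in the control. For T and NK cell markers it was 5134 to 7314 in the KO arrays and 5642 in the control, and for B cell markers 1551 to 2002 in the KO arrays and 1720 in the control. Dendritic cell markers summed to 3937 to 4470 in the KO arrays and 4078 in the control. For the members the sums were 45380, 49092 and 49267 in the KO arrays and 42277 in the control.

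Erythroid, endothelial and testis cell markers had sums above the control in every KO array, as the members did. The sums were 27322 to 38961 in the KO arrays and 25051 in the control for 5 erythroid genes, 27929 to 29157 in the KO arrays and 23875 in the control for 6 endothelial genes, and 126590 to 150840 in the KO arrays and 114230 in the control for the 8 testis markers. limma called 0 genes of these 3 lists, and by its unadjusted p under 0.05 the counts were 1, 0 and 1 (Epor at 0.63 ± 0.25 and Hsd3b1 at 0.76 ± 0.26), and the medians were 0.20, 0.19 and 0.25. The testis markers lay on both sides of the control. Every KO array lay above it for 4 genes (50%), against 26.6% of named genes, and below it for 2 (25%), against 24%. Star, which moves cholesterol into mitochondria, was at 0.53 ± 0.34. The Sertoli cell genes Sox9 and Amh were at -0.56 ± 0.28 and -0.05 ± 0.25 with every KO array below the control. In KO replicate 2, Amh differed from the control by only -0.0022. No marker of any list is at 0, since the lowest value of the table is 23.9, and a sum is carried by its brightest genes. The part of these cells in the members' values was not tested.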

How the data were processed

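Per the labels' protocols, total RNA of testes was extracted with TRIzol, purified on a column, labelled with Cy3 and read on a NimbleGen expression array of a single colour. Per the submitters' processing notes, the authors processed the arrays with RMA, which corrects background, normalises arrays and summarises probes per transcript (settings not given in the sources used here). Values as deposited are intensities on a linear scale, 1 for each of 25631 RefSeq transcripts and array. They ran from 23.9 to 65156.

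From these, log2 was taken with no added constant. Transcripts were named through a RefSeq gene table (GRCm38.p6), which matched 17780 of them (69.4%). All transcripts were fitted with limma 3.58.1 in R 4.3.3 (lmFit, eBayes; Dmrt1 KO minus control, two-sided), with Benjamini-Hochberg adjustment over the whole table. The 2 residual degrees of freedom come from the KO arrays, and a variance prior adds 7.97, so the spread of the control is taken to be theirs. The script was tested on simulated arrays in which every transcript and array, the control included, had the same spread. That test could not check the assumption about the control. The number of arrays limits the precision. A permutation of 1 array against 3 could give no p under 0.25.

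The members and gene lists were chosen with earlier results of these data known, so lists get no test. All members are named, and of the other lists up to 3 genes with the smallest p, any that passed, and Csf1, Il34, H2-Eb1, Cd74 and Dmrt1. S100a9, Amh, Ddx4, Dazl, Cyp17a1 and Insl3 are named outside this rule, and some genes within it are not reported here.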

Additional observations from a re-analysis of the deposited data

How the results depend on the processing

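The alternatives left out each KO array in turn, normalised the arrays by quantiles again, centred them on their medians, left out the dimmest 25% of transcripts, averaged the transcripts of a gene, took log2(value + 50), or changed the variance prior or the threshold. limma called 0 members under every one of them, also at an adjusted p under 0.1, and the lowest adjusted p of any member was 0.179, without KO replicate 3. The median member difference was 0.40 with the dimmest 25% left out, against 0.28 over all members, since the dim members lay closer to 0. Leaving out KO arrays gave medians of 0.18 to 0.33, 18 to 23 members above the control and a median SD of 0.22 to 0.34. Of 31 members, 27 kept their sign under every alternative that could be computed for them, 23 above and 4 below the control, and 10 dim members had no value in the setting that leaves them out. Over the fits that leave out 1 KO array, Ly86 ran from -0.29 to 0.26, Lyz1 from -0.17 to 0.0026 and Ms4a7 from -0.10 to 0.13, each positive without replicate 1, and Spi1 ran from -0.34 to 0.39, positive without replicate 2. Spi1 was at 0.0089 with log2(value + 50), and Ms4a7 at 0.32 with its transcripts averaged. No paired analysis was possible because only 1 control array was compared. No alternative varies that array, and signal over background could not be judged from these values.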
